A study of Homo sapiens with 8 samples.

Results

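The genes described here are 7 enzymes that make proline, glutamine, aspartate and asparagine from a shared pool of glutamate: ALDH18A1, PYCR1, PYCR3, OAT, GLUL, GOT1 and ASNS. They were taken by name, and each matched 1 of the 60666 gene IDs in the count table. All 7 were among the 13493 genes tested, which averaged 1 CPM or more over the 8 libraries, CPM being a gene's counts after all libraries are brought to the same effective total.

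The RNA came from MRC5, a line of human lung fibroblasts. There were 4 groups with 2 libraries per group. The groups were shMTHFD2 cells with TGF-β1, shMock cells with TGF-β1, shMTHFD2 control cells and shMock control cells. Cells of both lines carried a hairpin, directed against MTHFD2 in shMTHFD2 and labelled as mock in shMock. The dose is stated as 4 ng, with no volume, and the incubation as 24 h, in a text that control samples also carry. The knockdown is represented by 1 line with no rescue, so an effect of the hairpin's target cannot be told apart from anything else that differs between the lines. For 3 shMTHFD2 samples another gene is named as genotype, and their titles were used. The extraction text mentions another cell line and another hairpin. Nothing says that replicates were separate cultures, so the spread behind each p-value is that of these libraries and may be technical.

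Fibroblasts use proline and glycine in bulk when they make collagen, and TGF-β1 drives them towards contractile, matrix-producing myofibroblasts. Proline can be built from glutamate or from ornithine. In the first route ALDH18A1, in mitochondria, reduces glutamate to a semialdehyde that closes into a ring, and a pyrroline-5-carboxylate reductase of the PYCR family reduces the ring to proline. Glutamate also takes up ammonia to give glutamine, passes its amino group to oxaloacetate to give aspartate, and aspartate takes the amide nitrogen of glutamine to give asparagine. MTHFD2 is a mitochondrial enzyme of the folate cycle, and it and ASNS are known targets of the stress-responsive transcription factor ATF4.

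The libraries held 18162738 to 22221927 counts. MTHFD2 stood at 93.8 and 91.9 CPM in TGF-β1-treated shMTHFD2 cells, against 256 and 258 CPM in TGF-β1-treated shMock cells. It stood at 14.9 and 18.7 CPM in shMTHFD2 control cells, against 58.8 and 57.1 CPM in shMock control cells. The knockdown left MTHFD2 higher in TGF-β1-treated shMTHFD2 cells than in shMock control cells. ACTA2, the smooth muscle actin of myofibroblasts, had log2 fold changes with TGF-β1 of 3.23 in shMTHFD2 cells and 3.66 in shMock cells (edgeR adjusted p = 1.08e-12 and 3.16e-13). COL1A1 and CCN2, also known to respond to this cytokine, had log2 fold changes of 1.32 and 1.50 in shMTHFD2 cells and 1.10 and 1.61 in shMock cells. All 10 fibroblast markers were tested, and their summed level was 52273 to 53055 CPM in TGF-β1-treated shMTHFD2 cells, 50150 to 54611 CPM in TGF-β1-treated shMock cells, 30705 to 33003 CPM in shMTHFD2 control cells and 33465 to 36789 CPM in shMock control cells. COL1A1 was the largest part of this sum in each library. With TGF-β1 COL1A1 and COL1A2 were higher in both lines, DCN and LUM were lower and COL3A1 overlapped. None of 10 epithelial markers was tested, and 7 of them, EPCAM and KRT19 included, had at most 3 counts in any library. At most 3 counts were also found for PECAM1 and CDH5 of endothelium (4 of 7 markers at this level), PTPRC and CD3E of leukocytes (4 of 7) and DES of muscle (1 of 6). The summed smooth muscle and pericyte markers moved with both factors, at 227 to 251 CPM in TGF-β1-treated shMTHFD2 cells, 347 to 348 CPM in TGF-β1-treated shMock cells, 193 to 207 CPM in shMTHFD2 control cells and 270 to 296 CPM in shMock control cells. Single markers differed, MCAM and CNN1 being higher with TGF-β1 in both lines, and CSPG4 and RGS5 lower. CSPG4 had 58.3 and 50.9 CPM in treated and 90.3 and 86.5 CPM in control shMTHFD2 cells. Between the lines MCAM and CNN1 were lower in shMTHFD2 cells in both states, and CSPG4 overlapped. Summed endothelial markers, mostly TEK, were lower with TGF-β1, at 40.8 to 43.4 CPM in treated and 96.9 to 104 CPM in control shMTHFD2 cells, and at 43.3 to 48.9 CPM in treated and 98.9 to 110 CPM in control shMock cells. Summed leukocyte markers, mostly CD68, were at 47.6 to 51.2 CPM in treated and 75.0 to 76.5 CPM in control shMTHFD2 cells, and at 53.8 to 58.9 CPM in treated and 101 to 106 CPM in control shMock cells. The part of these changes in the results was not tested.

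Upstream sequences show where the few motif matches lie in the genes that follow. For 5 of the 7 genes the RefSeq promoter table (GRCh38.p14) held a window, and 3 of these 5 held a match to 1 of the motifs searched on both strands. The motifs were TGATGNAA, a composite element bound by C/EBP and ATF proteins, CACGTG, the E-box, and GTCTAGAC, the SMAD palindrome. The windows searched ran from 250 bases before the gene's start in RefSeq to 50 after it. The part before the start is printed 5′ to 3′ on the gene's own strand with the match in capitals. All 3 genes lie on the minus strand, with the printed parts at chr7:97872409-97872658 for ASNS, chr10:99430625-99430874 for GOT1 and chr10:95656712-95656961 for ALDH18A1. The RefSeq start can differ from that of the gene positions given further on, which come from GENCODE. By those positions the whole printed part of GOT1, and the match of ASNS, lie inside the gene.
ASNS: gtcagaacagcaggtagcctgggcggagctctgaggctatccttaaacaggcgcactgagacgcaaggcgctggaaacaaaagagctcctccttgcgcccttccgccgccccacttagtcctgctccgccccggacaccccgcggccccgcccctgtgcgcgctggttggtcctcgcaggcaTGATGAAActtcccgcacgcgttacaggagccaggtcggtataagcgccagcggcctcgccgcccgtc
GOT1: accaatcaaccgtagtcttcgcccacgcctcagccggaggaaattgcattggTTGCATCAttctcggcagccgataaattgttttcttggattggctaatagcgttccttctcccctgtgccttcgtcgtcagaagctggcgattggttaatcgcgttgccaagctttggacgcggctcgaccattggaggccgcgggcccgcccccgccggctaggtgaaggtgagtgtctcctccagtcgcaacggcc
ALDH18A1: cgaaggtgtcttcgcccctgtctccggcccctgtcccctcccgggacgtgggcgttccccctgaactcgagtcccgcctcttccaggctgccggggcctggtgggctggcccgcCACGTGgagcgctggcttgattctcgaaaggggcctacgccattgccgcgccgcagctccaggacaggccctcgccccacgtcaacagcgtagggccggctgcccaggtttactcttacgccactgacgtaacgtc
The ASNS match lies at bases -68 to -61 from the start, the GOT1 match, on the opposite strand, at -198 to -191, and the ALDH18A1 match at -136 to -131. No match to these letters was found in the windows of OAT and GLUL, or in a second ASNS window that overlaps the first. Of 35116 RefSeq windows of the same length, 3.62% held TGATGNAA, 7.26% held CACGTG and 0.202% held GTCTAGAC. A match describes letters and is not evidence of binding.

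With TGF-β1, the first enzyme of proline synthesis, the reductase PYCR1 and the asparagine synthetase ASNS were higher in both lines, by 2.67- to 5.27-fold in shMTHFD2 cells and 2.73- to 5.14-fold in shMock cells. In the shMTHFD2 line PYCR1 and ASNS were lower than in the shMock line, by 1.42- and 1.62-fold with TGF-β1 and by 1.50- and 1.66-fold without it. ALDH18A1, which feeds PYCR1, did not pass the test between the lines in either state. Over the 8 libraries OAT, GLUL, GOT1 and PYCR3 ranged over 0.28 to 0.56 on the log2 scale, against 1.66 to 3.17 for the others. Among the tests of OAT, GLUL, GOT1 and PYCR3, 1 passed, a fall of GLUL with TGF-β1 in shMock cells. These are bulk RNA levels, in which fewer cells of a type and less RNA per cell cannot be told apart.

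**Figure D1:**
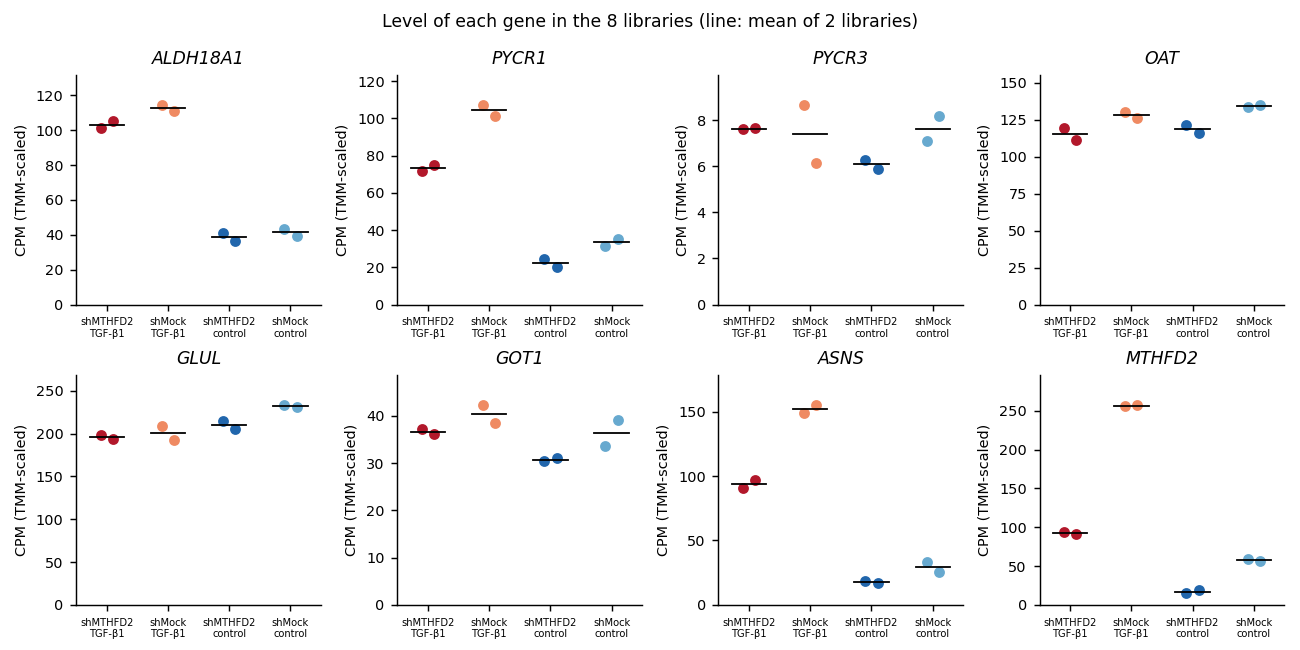
Level of each of the 7 enzymes and of MTHFD2 in CPM, with 1 point per library and a line at the mean of 2 libraries, for the 4 groups. ALDH18A1, PYCR1 and ASNS sit higher in the TGF-β1 groups, and PYCR1 and ASNS also sit lower in shMTHFD2 than in shMock cells. OAT, GLUL, GOT1 and PYCR3 vary less, on axes that start at 0.

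ALDH18A1 makes the committed intermediate of proline and ornithine synthesis from glutamate. It lies on the minus strand of chromosome 10, at chr10:95605929-95656706 (GENCODE 29, GRCh38), and shares no exon sequence with another annotated gene. It had 101 and 105 CPM in TGF-β1-treated shMTHFD2 cells, against 40.8 and 36.2 CPM in shMTHFD2 control cells. In shMock cells it had 115 and 111 CPM with TGF-β1, against 43.5 and 39.3 CPM without it. Both treated groups lay above both control groups with no overlap. The log2 fold change with TGF-β1 was 1.42 in shMTHFD2 cells (SE 0.09, edgeR adjusted p = 1.1e-08) and 1.45 in shMock cells (SE 0.09, adjusted p = 6.8e-09). Between the lines the values were close. The log2 difference of shMTHFD2 from shMock cells was -0.13 with TGF-β1 (95% interval -0.31 to 0.05, edgeR adjusted p = 0.356) and -0.10 without it (-0.30 to 0.09, adjusted p = 0.540). With TGF-β1 the shMTHFD2 libraries were both below the shMock libraries, and without it the groups overlapped.

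PYCR1, a mitochondrial reductase, carries out the last step of proline synthesis. It lies at chr17:81932384-81942412 on the minus strand. It had 71.5 and 75.0 CPM in TGF-β1-treated shMTHFD2 cells, against 107 and 101 CPM in TGF-β1-treated shMock cells. Without TGF-β1 it had 24.4 and 20.3 CPM in shMTHFD2 cells, against 31.7 and 35.4 CPM in shMock cells. In both states the shMTHFD2 libraries lay below the shMock libraries. The log2 fold change of shMTHFD2 against shMock was -0.51 with TGF-β1 (SE 0.09, edgeR adjusted p = 0.0027) and -0.59 without it (SE 0.11, adjusted p = 0.0021). Leaving out 1 library at a time kept both calls, with adjusted p up to 0.032 with TGF-β1 and up to 0.0446 without it. With TGF-β1 PYCR1 rose in both lines, by a log2 fold change of 1.71 in shMTHFD2 cells (SE 0.10, edgeR adjusted p = 6.1e-09) and 1.64 in shMock cells (SE 0.10, adjusted p = 5.6e-09). TGF-β1 took shMTHFD2 cells past the untreated shMock level, and all 4 treated libraries were above all 4 control libraries. The exons of PYCR1 share 408 bases with MYADML2 on the same strand, which had 0 counts in every library, and 450 bases with an antisense gene at 0 to 3 counts.

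PYCR3, formerly PYCRL, is a cytosolic reductase that is thought to serve proline synthesis from ornithine. It lies at chr8:143603913-143609773 and was the least abundant of the 7 genes, at 107 to 166 counts a library. It had 7.61 and 7.68 CPM in TGF-β1-treated shMTHFD2 cells, against 8.69 and 6.14 CPM in TGF-β1-treated shMock cells. Without TGF-β1 it had 6.30 and 5.89 CPM in shMTHFD2 cells, against 7.10 and 8.19 CPM in shMock cells. The shMTHFD2 libraries lay inside the span of the shMock libraries with TGF-β1 and below them without it. None of its 4 differences passed, and the 95% intervals between the lines ran from -0.41 to 0.50 with TGF-β1 and from -0.78 to 0.13 without it on the log2 scale. Changes of the size seen for PYCR1 lie inside the second interval.

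OAT interconverts ornithine and glutamate semialdehyde and so links proline to the urea cycle and polyamines. It lies at chr10:124397303-124418976. It had 119 and 111 CPM in TGF-β1-treated shMTHFD2 cells, against 130 and 126 CPM in TGF-β1-treated shMock cells. Without TGF-β1 it had 121 and 116 CPM in shMTHFD2 cells, against 134 and 135 CPM in shMock cells. The shMTHFD2 libraries were the lower ones in both states, by a log2 difference of -0.15 with TGF-β1 (edgeR adjusted p = 0.218) and -0.18 without it (adjusted p = 0.149). Neither passed the threshold, nor did the changes with TGF-β1 of -0.04 in shMTHFD2 cells and -0.07 in shMock cells. Per kilobase of exon OAT was the most abundant of the 7 genes, at a mean of 36.6 CPM per kb over the 8 libraries.

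GLUL, glutamine synthetase, joins ammonia to glutamate. It lies at chr1:182381704-182392206. It had 198 and 193 CPM in TGF-β1-treated shMTHFD2 cells and 209 and 193 CPM in TGF-β1-treated shMock cells. Without TGF-β1 it had 215 and 206 CPM in shMTHFD2 cells and 234 and 231 CPM in shMock cells. The lines overlapped with TGF-β1, and without it the shMTHFD2 libraries were lower. The log2 difference between the lines was -0.04 with TGF-β1 and -0.14 without it (edgeR adjusted p = 0.789 and 0.267). With TGF-β1 GLUL fell by 0.21 on the log2 scale in shMock cells (SE 0.08, edgeR adjusted p = 0.0458), and in shMTHFD2 cells the change was -0.11 (adjusted p = 0.373). The shMock call is marginal. It was lost without any 1 of 7 libraries, the exception being the first TGF-β1-treated shMock library, with adjusted p between 0.0657 and 0.223. It was also lost with median-of-ratios size factors (adjusted p = 0.0693), with no filter on low counts (0.112), with edgeR's own filter (0.062) and in a fit of the 4 libraries compared (0.0673).

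GOT1, the cytosolic aspartate aminotransferase, makes aspartate from oxaloacetate and glutamate. It lies at chr10:99396870-99431569. It had 37.3 and 36.0 CPM in TGF-β1-treated shMTHFD2 cells, against 42.3 and 38.5 CPM in TGF-β1-treated shMock cells. Without TGF-β1 it had 30.4 and 31.1 CPM in shMTHFD2 cells, against 33.7 and 39.2 CPM in shMock cells. In each state both shMTHFD2 libraries lay below both shMock libraries, by a log2 difference of -0.14 with TGF-β1 (edgeR adjusted p = 0.420) and -0.25 without it (adjusted p = 0.154), and neither passed. The change with TGF-β1 was 0.26 in shMTHFD2 cells (adjusted p = 0.0974) and 0.15 in shMock cells (0.286). The exons of GOT1 share 651 bases with the opposite-strand transcript GOT1-DT, which had 35 to 106 counts a library, and the use of strand in counting is not given in the sources used here. Against the mitochondrial GOT2, GOT1 stood at a ratio per kilobase of 0.489 to 0.622 over the 8 libraries.

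ASNS takes the amide nitrogen of glutamine to make asparagine from aspartate. It lies at chr7:97852118-97872542 and had the widest range of the 7 genes. It had 90.5 and 96.9 CPM in TGF-β1-treated shMTHFD2 cells, against 149 and 155 CPM in TGF-β1-treated shMock cells. Without TGF-β1 it had 18.3 and 17.2 CPM in shMTHFD2 cells, against 33.4 and 25.6 CPM in shMock cells. The groups did not overlap in either state. The log2 fold change of shMTHFD2 against shMock was -0.70 with TGF-β1 (SE 0.10, edgeR adjusted p = 0.00041) and -0.73 without it (SE 0.12, adjusted p = 0.000916). Without the first shMock control library the second value was -0.53 (adjusted p = 0.0159), and without the second shMock control library it was -0.91 (both still called). With TGF-β1 ASNS rose by a log2 fold change of 2.40 in shMTHFD2 cells (SE 0.11, edgeR adjusted p = 4.2e-10) and 2.36 in shMock cells (SE 0.11, adjusted p = 2.4e-10). These rises ranked 90th and 100th from the highest among 13493 genes. The exons of ASNS share 1985 bases on the same strand with an unnamed gene at 33 to 143 counts a library. With the counts of both summed, an alternative chosen after seeing the data, the log2 fold changes between the lines were -0.65 with TGF-β1 and -0.73 without it, and the calls were unchanged.

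In shMTHFD2 against shMock cells with TGF-β1, 2 of the 7 genes were called at an edgeR adjusted p under 0.05, both lower, beside 13.1% of all tested genes called, 4.83% higher and 8.23% lower. The median log2 fold change was -0.14 over the 7 genes and 0.01 over all tested genes. Without TGF-β1 the same 2 genes were called lower, beside 11.4% of all genes called, 3.25% higher and 8.19% lower, with a median of -0.25 over the 7 genes and -0.01 over all. There 4 of the 7 genes had an unadjusted p under 0.05 in edgeR, beside 3379 of the 13493 tested genes. GOT1 and OAT, both lower in shMTHFD2 cells, were those not called. With TGF-β1 3 of 7 genes were called higher in shMTHFD2 cells and none lower, beside 23.8% of all genes called, 12.8% higher and 11.0% lower, and the medians were 0.33 and -0.01. In shMock cells 3 were called higher and 1 lower, beside 35.4% called, 17.3% higher and 18.1% lower, with medians of 0.15 and -0.02. The counts for the members are of few genes, and the shares over all genes are given so that they can be read against them. With scaling by library totals alone, the split over all genes moved to 1338 higher and 717 lower between the lines with TGF-β1, against 652 and 1110 with TMM factors, and to 755 and 740 without TGF-β1, against 438 and 1105. For TGF-β1 it moved to 1222 higher and 2455 lower in shMTHFD2 cells, against 1725 and 1489, and to 1570 and 3932 in shMock cells, against 2333 and 2443. In these comparisons the medians over all were 0.10, 0.06, -0.12 and -0.16 under that scaling, against 0.01, -0.01, -0.01 and -0.02 with TMM factors. PYCR1 and ASNS kept their calls with library totals alone, and ALDH18A1 kept its calls with TGF-β1.

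**Figure D2:**
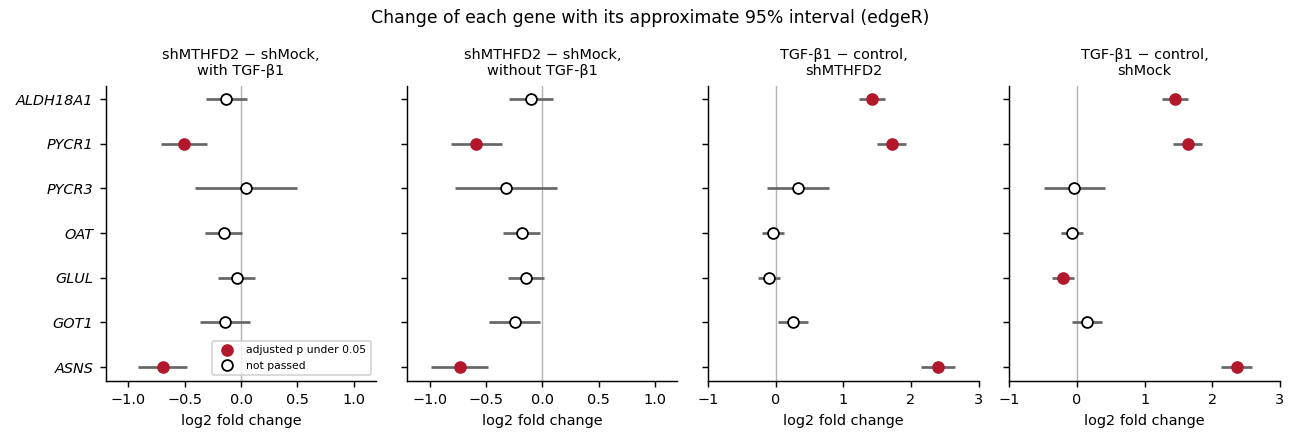
Log2 fold change of each of the 7 enzymes in 4 comparisons, with its approximate 95% interval from edgeR as a bar, filled where the adjusted p was under 0.05. PYCR1 and ASNS lie left of 0 between the lines in both states, and ALDH18A1, PYCR1 and ASNS lie at 1.42 to 2.40 with TGF-β1 in the panels of both lines.

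The interaction asks whether the response to TGF-β1 differs between the lines. It was called by edgeR for 0 of the 7 genes, beside 0.0889% of all tested genes called, 0.0371% higher and 0.0519% lower. An unadjusted p under 0.05 in edgeR was found for 0 of the 7, beside 1718 of the 13493 tested genes. DESeq2 also called 0 of the 7, but it gave no adjusted p for PYCR3. For ASNS the response in shMTHFD2 minus that in shMock was 0.04 on the log2 scale (95% interval -0.29 to 0.37), for PYCR1 0.08 (-0.23 to 0.38) and for ALDH18A1 -0.03 (-0.30 to 0.24). GLUL stood at 0.10 (-0.13 to 0.34), GOT1 at 0.11 (-0.21 to 0.42), OAT at 0.03 (-0.20 to 0.26) and PYCR3 at 0.37 (-0.28 to 1.01). A p that misses the threshold does not show equal responses, and these intervals give the range of differences that the data leave. Over all genes 12 interactions were called, a number that ran from 3 to 185 without single libraries.

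Within a library, ratios of raw counts set PYCR1 and ASNS against ALDH18A1 without any scaling between libraries. They do not compare abundance between genes, because the genes differ in length. There were 0.707 and 0.713 PYCR1 counts per ALDH18A1 count in TGF-β1-treated shMTHFD2 cells, against 0.936 and 0.910 in TGF-β1-treated shMock cells. Without TGF-β1 the ratio was 0.596 and 0.559 in shMTHFD2 cells, against 0.729 and 0.901 in shMock cells. Within each state it was lower in both shMTHFD2 libraries, by 0.43 on the log2 scale on average (stratified log2 difference -0.43, exact two-sided permutation p = 0.0556). That is the smallest p that 36 arrangements allow, and the Benjamini-Hochberg value over 3 ratios was 0.0833. ASNS to ALDH18A1 was 0.896 and 0.920 in TGF-β1-treated shMTHFD2 cells, against 1.29 and 1.40 in TGF-β1-treated shMock cells. It was 0.449 and 0.474 in shMTHFD2 control cells, against 0.768 and 0.651 in shMock control cells (stratified log2 difference -0.59, exact permutation p = 0.0556, adjusted 0.0833). PYCR1 to ASNS was 0.790 and 0.774 in TGF-β1-treated shMTHFD2 cells, against 0.723 and 0.651 in TGF-β1-treated shMock cells. It was 1.33 and 1.18 in shMTHFD2 control cells, against 0.950 and 1.38 in shMock control cells. That ratio overlapped between the lines without TGF-β1, and its stratified log2 difference was 0.16 (exact permutation p = 0.278, adjusted 0.278). The design could not reach 0.05 in these tests, and the ratios were chosen after the values were seen.

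**Figure D3:**
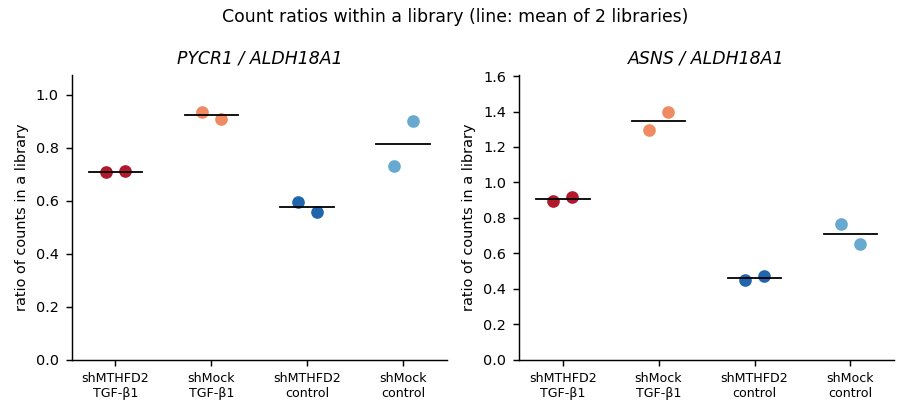
Ratio of PYCR1 counts and of ASNS counts to ALDH18A1 counts in each library, with a line at the mean of 2 libraries, for the 4 groups. Both ratios are lower in the shMTHFD2 libraries than in the shMock libraries of the same state, 0.707 and 0.713 against 0.936 and 0.910 for PYCR1 with TGF-β1.

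Per kilobase of exon, the order of the 7 genes by mean level over the 8 libraries was OAT, GLUL, PYCR1, ALDH18A1, ASNS, GOT1 and PYCR3, at 36.6, 23.2, 20.2, 19.6, 16.4, 10.7 and 2.22 CPM per kb. With the length of the longest transcript in place of all exons, ASNS stood at place 3, PYCR1 at 4 and ALDH18A1 at 5, so the order of these neighbours depends on the length used. In TGF-β1-treated shMTHFD2 cells ALDH18A1 averaged 27.4 ± 0.796 CPM per kb and PYCR1 25.4 ± 0.871 (SD, n = 2), while in TGF-β1-treated shMock cells PYCR1 averaged 36.1 ± 1.56 and ALDH18A1 30.0 ± 0.703. The order of these 2 genes thus differed between the lines with exon lengths, but not with the longest transcripts, where PYCR1 at 38.5 was above ALDH18A1 at 30.7 CPM per kb in treated shMTHFD2 cells and PYCR1 at 54.7 above ALDH18A1 at 33.6 in treated shMock cells. OAT, at 34.0 ± 1.71 in TGF-β1-treated shMTHFD2 cells, was the highest there. In TGF-β1-treated shMock cells OAT at 37.8 ± 0.940, PYCR1 at 36.1 ± 1.56 and ASNS at 34.1 ± 1.07 stood close together, and OAT and PYCR1 were within their spread, whereas by the longest transcripts PYCR1 at 54.7 ± 2.37 was below OAT at 62.5 ± 1.56 and ASNS at 64.5 ± 2.02. Without TGF-β1 ASNS stood second to last, at 3.98 ± 0.188 CPM per kb in shMTHFD2 cells and 6.62 ± 1.24 in shMock cells. By the longest transcripts it kept that place in shMTHFD2 control cells, while in shMock control cells ASNS at 12.5 ± 2.34, GOT1 at 12.5 ± 1.33 and ALDH18A1 at 12.3 ± 0.881 were within their spread.

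Over the 8 libraries, levels centred on their mean were compared by the root mean square difference of log2 CPM, first among the 7 genes and then with 11915 other protein-coding genes. ALDH18A1 and PYCR1 differed by 0.262, PYCR1 and ASNS by 0.392, ALDH18A1 and ASNS by 0.565, and OAT and GLUL by 0.0708. Among the most similar other genes to ASNS were CDKN2B, an inhibitor of cell-cycle kinases, at 0.120 and PIK3AP1 at 0.161. For PYCR1 they were APCDD1L at 0.119, MICAL2, which oxidises actin, at 0.128 and PCK2, the mitochondrial phosphoenolpyruvate carboxykinase, at 0.138. For ALDH18A1 they were SSC5D at 0.0957, PXDN, a peroxidase of the basement membrane, at 0.0994 and E2F7, a transcriptional repressor, at 0.110. None of these genes is in the ATF4-linked list described further on. That list is not a full set of ATF4 targets, so absence from it does not show that a gene has no link to ATF4. The nearest genes were TUSC2, UBALD2 and FBXO4 for PYCR3 (0.0671 to 0.0865), MFSD14A, BCL2L13 and RAB34 for OAT (0.0197 to 0.0391), DNMT1, MMAB and SEPHS2 for GLUL (0.0212 to 0.0361) and IFNGR2, RHOA and ZMYND11 for GOT1 (0.0384 to 0.0470). The points share library and depth, small differences for flat genes reflect their narrow range, and overlap of these genes with others was not examined.

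Of 14 other genes of proline and ornithine metabolism 8 were tested, and PRODH, the first enzyme of proline breakdown, had at most 2 counts in any library. ODC1, which decarboxylates ornithine to putrescine, had 23.1 and 24.9 CPM in TGF-β1-treated shMTHFD2 cells, against 44.9 and 42.5 CPM in TGF-β1-treated shMock cells. It had 31.5 and 31.1 CPM in shMTHFD2 control cells, against 48.2 and 57.8 CPM in shMock control cells. It was lower in shMTHFD2 cells in both states, by a log2 fold change of -0.87 with TGF-β1 (edgeR adjusted p = 0.000144) and -0.76 without it (adjusted p = 0.000303). With TGF-β1 2 of the 8 genes were lower and none higher between the lines, beside 8.23% of all tested genes lower, the other being AZIN1, the antizyme inhibitor, at -0.28 (adjusted p = 0.0249). Without TGF-β1 1 was lower, beside 8.19%. The TGF-β1 responses held 2 of 8 called in shMTHFD2 cells and 3 of 8 in shMock cells, beside 23.8% and 35.4% of all genes, which is near the background. In shMTHFD2 cells 0 were higher and 2 lower, ALDH4A1, which oxidises the proline intermediate to glutamate, at -0.67 (adjusted p = 0.0118) and ODC1 at -0.38 (0.018). In shMock cells 1 was higher, AZIN2 at 0.40 (0.0165), and 2 lower, ALDH4A1 at -0.72 (0.00561) and GAMT, the creatine-forming methyltransferase, at -0.59 (0.00387). The AZIN1 call was lost without either shMTHFD2 TGF-β1 library or the first shMock TGF-β1 library (adjusted p = 0.111 to 0.137). The ODC1 call with TGF-β1 in shMTHFD2 cells was lost without the first treated or either control shMTHFD2 library (0.0566 to 0.111). ALDH4A1 lost its call in shMTHFD2 cells without the second treated or the first control library (0.0766 to 0.182) and in shMock cells without the second control library (0.0592), and AZIN2 without the second treated or first control shMock library (0.129 to 0.169). Without single libraries the lower counts with TGF-β1 fell in some fits in shMTHFD2 cells, and both fell and rose in shMock cells. Over all genes, fewer were called lower whenever a library of the groups compared was left out. With library totals alone the list had 1 higher and 1 lower between the lines with TGF-β1, and 0 higher and 5 lower with TGF-β1 in shMock cells.

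Around glutamine and glutamate, 19 of 22 other genes were tested. Between the lines with TGF-β1, 4 were lower and none higher, beside 13.1% of all tested genes called and 8.23% lower. CTPS1, which makes CTP with glutamine as nitrogen donor, had 98.7 and 98.1 CPM in TGF-β1-treated shMTHFD2 cells, against 147 and 143 CPM in TGF-β1-treated shMock cells, a log2 fold change of -0.56 (edgeR adjusted p = 0.000249). BCAT1, the cytosolic branched-chain aminotransferase, had 466 and 511 CPM there, against 676 and 675 CPM, a change of -0.47 (adjusted p = 0.00182). Without TGF-β1 2 of 19 were called, beside 11.4% of all genes: 1 was higher, KYAT1 at 0.75 (0.0295), and 1 lower, the glutamate dehydrogenase GLUD1 at -0.34 (0.00834). With TGF-β1 9 of 19 were called in shMTHFD2 cells and 8 of 19 in shMock cells, beside 23.8% and 35.4% of all genes, the shMock share being near the background. In shMTHFD2 cells 6 were higher and 3 lower, led by BCAT1 at 2.06 and CTPS1 at 1.80 (adjusted p = 1.06e-10 and 2.85e-10), with BCAT2 at -0.47 (0.00864) and KYAT3 at -0.33 (0.0289) lowest. In shMock cells 6 were higher and 2 lower, BCAT1 at 2.28 and CTPS1 at 2.22 (3.19e-11 and 2.43e-11) against OPLAH at -0.74 (0.00366) and BCAT2 at -0.65 (0.000677). Without some single libraries the list had fewer lower calls between the lines with TGF-β1. With TGF-β1 it then also had fewer calls in shMTHFD2 cells, while the lower calls in shMock cells both fell and rose. Over all genes, fewer were called whenever a library of the groups compared was left out. A left-out library leaves 1 library in its group, so these counts are not compared. With library totals alone 2 of the list were higher and 2 lower between the lines with TGF-β1. Its lower calls with TGF-β1 were then 6 in each line. KYAT1 lost its call without any 1 of the 4 control libraries (adjusted p = 0.0692 to 0.195), and GLUD1 without the second shMTHFD2 control or first shMock control library (0.0752 to 0.0865). BCAT2 lost its call in shMTHFD2 cells without the second library of either state (0.0550 to 0.118), KYAT3 without either treated library or the second control library of that line (0.0795 to 0.181), and OPLAH without the second shMock control library (0.0509).

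Around aspartate and asparagine, 15 of 20 other genes were tested. Between the lines with TGF-β1 edgeR called 0, beside 13.1% of all tested genes. Its unadjusted p was under 0.05 for 4 of the 15, beside 3661 of the 13493 tested genes. DESeq2 called 1 lower, beside 1175 lower of the 12185 genes to which it gave an adjusted p. Of the 15, NARS1 and the malate dehydrogenase MDH2 were the most abundant. NARS1 loads asparagine onto its tRNA, and its log2 difference was -0.21 (edgeR adjusted p = 0.0876). That of MDH2 was 0.06 (edgeR adjusted p = 0.758). Without TGF-β1 1 was lower, beside 8.19% of all genes, GOT2 at -0.29 (edgeR adjusted p = 0.0432). With TGF-β1 4 of 15 were called in shMTHFD2 cells and 7 of 15 in shMock cells, beside 23.8% and 35.4% of all genes, and the first share is near the background. In shMTHFD2 cells 2 were higher and 2 lower, the aspartate-glutamate carrier SLC25A13 at 0.36 (0.0244) and ADSS2 at 0.35 (0.00495) against NARS2, the mitochondrial form, at -0.89 (0.00146) as the lowest. In shMock cells 3 were higher and 4 lower, NARS1 at 0.45 (0.000288) and SLC25A13 at 0.37 (0.0155) against NARS2 at -0.67 (0.00892) and SLC25A12 at -0.47 (0.00605). GOT2 lost its call without any 1 of the 4 control libraries or the first shMTHFD2 TGF-β1 library (adjusted p = 0.0592 to 0.263). Without single libraries the shMock counts with TGF-β1 both fell and rose, and the shMTHFD2 higher count fell in some fits. Over all genes, fewer were called whenever a library of the groups compared was left out. With library totals alone the list had 1 higher and 4 lower in shMTHFD2 cells and 1 higher and 7 lower in shMock cells. SLC25A13 lost its call in shMTHFD2 cells without either treated or the first control library (0.0712 to 0.186) and in shMock cells without the first library of either state (0.0719 to 0.118), as did NARS2 in shMock cells (0.0554 to 0.0561). ADSS2 lost it without the first shMTHFD2 TGF-β1 library (0.0614), and SLC25A12 without the second shMock control library (0.0689).

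A list of 24 other genes linked to ATF4, of which 23 were tested, is given because ASNS and MTHFD2 are known ATF4 targets. It holds MTHFD2 itself, the gene that the hairpin targets. Between the lines with TGF-β1 8 of 23 were lower and none higher, beside 8.23% and 4.83% of all tested genes, MTHFD2 at -1.47 (edgeR adjusted p = 8.7e-07) and the lipoprotein receptor VLDLR at -0.91 (0.00251) lowest. Without TGF-β1 14 were lower, beside 8.19% of all genes, MTHFD2 at -1.79 (3.51e-07) and CTH, which makes cysteine, at -1.22 (0.0242) lowest, and 1 was higher, beside 3.25%, the cystine carrier SLC7A11 at 0.40 (0.0117). With TGF-β1 18 were higher and 1 lower in shMTHFD2 cells, beside 12.8% and 11.0% of all genes, led by MTHFD2 at 2.47 and the serine-synthesis enzyme PSAT1 at 2.02 (8.31e-11 and 2.59e-10), with SLC7A11 at -1.21 (1.34e-07). In shMock cells 18 were higher and 3 lower, beside 17.3% and 18.1%, led by MTHFD2 at 2.15 and ALDH1L2 at 1.79 (9.51e-11 and 4.01e-10), with SLC7A11 at -0.96 (1.43e-06) and ATF5 at -0.66 (0.000828) lowest. The medians over the 23 genes were -0.20 and -0.51 between the lines with and without TGF-β1, and 0.89 and 0.79 with TGF-β1 in shMTHFD2 and shMock cells, beside medians over all genes of 0.01, -0.01, -0.01 and -0.02. PSAT1 had 127 and 109 CPM in TGF-β1-treated shMTHFD2 cells, against 168 and 167 CPM in TGF-β1-treated shMock cells, and 28.9 and 29.3 CPM in shMTHFD2 control cells, against 49.1 and 49.5 CPM in shMock control cells. The RNA of ATF4 itself had a log2 difference between the lines of -0.19 with TGF-β1 (edgeR adjusted p = 0.114) and -0.29 without it (0.0236). Whether the latter call holds without single libraries was not tested. With TGF-β1 ATF4 rose by 0.69 in shMTHFD2 cells (edgeR adjusted p = 6.01e-06) and by 0.59 in shMock cells (2.18e-05). The 14 lower calls became fewer without the second shMTHFD2 control library or the first shMock control library, as did the lower calls over all genes. A left-out library leaves 1 library in its group, so these counts are not compared. CTH lost its call without any 1 of the 4 control libraries (0.0760 to 0.123), and SLC7A11 between the lines without the second control library of either line (0.106 to 0.169).

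**Figure D4:**
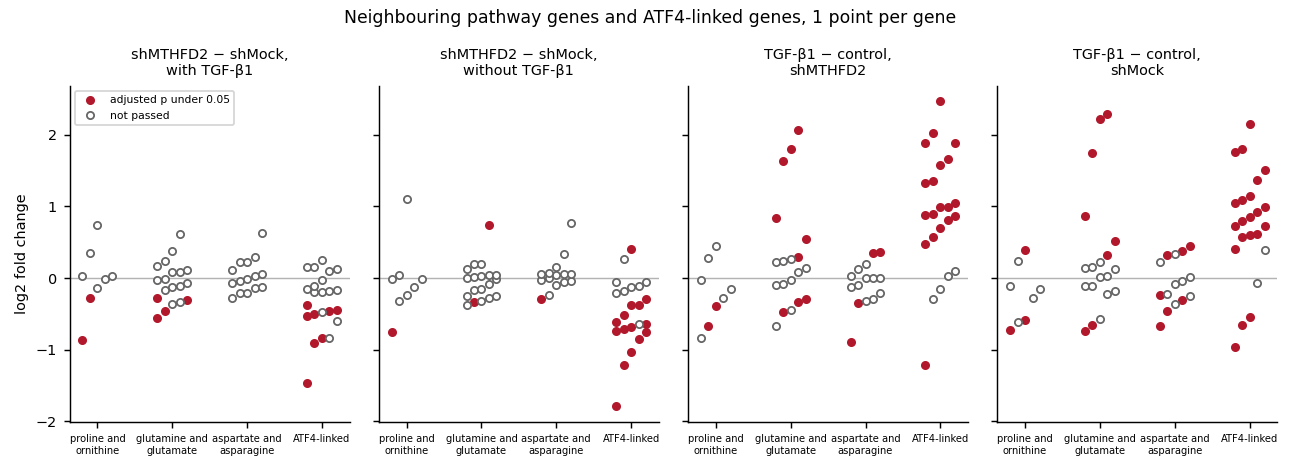
Log2 fold change of each tested gene of 4 lists in 4 comparisons, with 1 point per gene, filled where the edgeR adjusted p was under 0.05. Most ATF4-linked genes lie above 0 with TGF-β1 in the panels of both lines, 18 of 23 called higher in each, while the proline, glutamine and aspartate lists scatter around 0 apart from BCAT1, CTPS1 and a few others.

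No list gene passed the interaction test of edgeR, beside 0.0889% of all tested genes. Unadjusted edgeR p was under 0.05 for 0 of 8 proline, 1 of 19 glutamine, 1 of 15 aspartate and 4 of 23 ATF4-linked genes. Over all genes it was under 0.05 for 1718 of 13493. DESeq2 called 1 ATF4-linked gene higher, beside 53 higher of the 6953 genes to which it gave an adjusted p. Among the most abundant genes of each list, values stood at -0.04 (AZIN1), -0.22 (BCAT1), 0.03 (GLUD1), -0.25 (NARS1), 0.31 (MDH2), 0.10 (ATF4) and -0.25 (SLC7A11) on the log2 scale. Among the list genes named, the exons of ADSS2, ALDH4A1, ATF5 and KYAT3 overlap another gene on the same strand, and those of ALDH1L2, ATF5, AZIN1, BCAT1, GLUD1, GOT2, MTHFD2, NARS2, OPLAH, SLC25A12, SLC7A11 and VLDLR overlap a gene on the opposite strand, so their counts are uncertain to that extent.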

How the data were processed

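The authors deposited 1 table of whole-number counts per Ensembl gene ID, with 1 column for each of the 8 libraries. Its name speaks of FPKM, but its values are counts. STAR 2.7.1a and DESeq2 1.32.0, with the build GRCh38, are listed in the submitters' processing notes without a role. The counter and the use of strand were not given in the sources used here. Symbols matched 60437 of 60666 IDs. Positions, exon lengths and overlaps came from GENCODE 29, which holds 58420 of them, and promoters from RefSeq (GRCh38.p14).

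edgeR 4.0.16 in R 4.3.3 fitted all 8 libraries with 1 mean per group, TMM factors (0.914 to 1.07) and the quasi-likelihood test, on 4 residual degrees of freedom. The tested genes, averaging 1 CPM or more, hold 99.8 to 99.9% of the counts. The common biological coefficient of variation was 8.79%. P-values were adjusted after Benjamini and Hochberg over all 13493 genes, and 0.05 was the threshold. Standard errors and 95% intervals derive from the F statistic and are approximate. Totals of 18162738 to 22221927 counts put 3 counts at 0.135 to 0.172 CPM, for counting error only. Replicates differed by more than counting error (chi-square per degree of freedom 6.47 to 11.2). The fit was run on simulated counts with known changes in a single group and the same spread for every gene. The spread differs between genes in the data, so that run was a check of the code only.

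Replicate numbers were checked for pairing. Deviations of same-numbered libraries correlated at -0.02 to 0.08 over genes, so the numbers were not used to pair libraries. Alternatives were median-of-ratios factors, library totals alone, other filters, DESeq2 1.42.0, the 4 libraries compared, GC offsets, longest-transcript lengths, a replicate block and leaving out each library. The summing of overlapping genes was added after seeing the data.

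The 7 enzymes, the lists around them and the comparisons were chosen with earlier results of these data known. From each list and comparison, up to 2 highest and 2 lowest called genes are named, or the 2 most abundant as values where none was called. For likeness, the 3 protein-coding genes nearest to each enzyme are named. A few genes that these rules name are not reported here, though counts over lists include them.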

Additional observations from a re-analysis of the deposited data

How the results depend on the processing

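Over 17 settings the 7 enzymes gave 562 alternative values in the 5 comparisons: 529 kept their direction and side of the threshold, 11 lost a call, 2 gained one and 20 turned in direction, none of those 20 called. The 11 lost calls are those of GLUL with TGF-β1 in shMock cells, given above. The 2 gained came with library totals alone, GLUL with TGF-β1 in shMTHFD2 cells at -0.22 (edgeR adjusted p = 0.0383) and OAT in shMock cells at -0.21 (0.0416). PYCR1 and ASNS between the lines and ALDH18A1, PYCR1 and ASNS with TGF-β1 kept their calls under each setting run. With 2 libraries a group, a left-out library leaves an arm of 1, which the fit assumes to vary like the others.

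The genes called between the lines ran from 845 to 1820 with TGF-β1 and from 638 to 1674 without it when single libraries were left out, against 1762 and 1543, and the interactions from 3 to 185, against 12. The interactions numbered 321 of 24970 genes with no filter on low counts, against 12 of 13493 in the main fit. DESeq2 called 105 of the 6953 genes to which it gave an adjusted p. These sets of genes differ, and the cause of the different counts was not tested. With a replicate block, genes called between the lines were 1734 with TGF-β1 and 1530 without it, and no call of the 7 enzymes changed.

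Values that turned in direction without passing the test were as follows. With GC offsets PYCR3 stood at -0.147 between the lines with TGF-β1 and at 0.208 with TGF-β1 in shMock cells, GLUL at 0.0156 between the lines with TGF-β1, and the interactions at -0.160 (PYCR1), 0.0475 (AZIN1) and -0.0527 (ATF4). With library totals alone GLUL stood at 0.0510 between the lines with TGF-β1. Without single libraries, values between the lines with TGF-β1 ran from -0.179 to 0.322 for PYCR3, from -0.0922 to 0.0281 for GLUL and from -0.0743 to 0.230 for MDH2. With TGF-β1 they ran from -0.100 to 0.00787 for OAT in shMTHFD2 cells and from -0.311 to 0.190 for PYCR3 in shMock cells. The interactions ran from -0.139 to 0.0430 for ALDH18A1, from -0.0761 to 0.185 for PYCR1, from -0.0480 to 0.0793 for OAT, from -0.00739 to 0.211 for GOT1, from -0.171 to 0.213 for ASNS, from -0.0930 to 0.00217 for AZIN1 and from -0.0203 to 0.0638 for GLUD1. Across 13416 genes, which are not independent, GC content correlated with the fold change between the lines at a Spearman rho of 0.329 with TGF-β1 and -0.143 without it. It correlated with the TGF-β1 response at 0.0232 in shMTHFD2 cells and -0.285 in shMock cells, and with the interaction at 0.473. GC content was known for 99.4% of the tested genes.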
